A study of Homo sapiens with 2 samples.

Results

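The unfolded protein and integrated stress genes are 10 human genes taken by name, namely ATF4, ATF6, XBP1, DDIT3, TRIB3, ASNS, CHAC1, ERN1, EIF2AK3 and PPP1R15A, out of 19862 protein-coding genes placed on the chromosomes. All 10 were found in the RefSeq gene table (GRCh38.p14). They were described by the broad peaks of H3K18la, histone H3 lactylated on lysine 18, in H1299 cells, an established human non-small cell lung cancer line. The anti-H3K18la group was 1 library of formaldehyde-crosslinked H1299 chromatin precipitated with that antibody, and the input group was 1 library of H1299 chromatin taken with no antibody. No genotype change, treatment, time or dose is named for either, and both come from the same line. The series' design text speaks of IgG where the sample label speaks of input, so which control the peak calls used is not known. The 1 file analysed here is the peak list of the anti-H3K18la library. There were no replicates, no test between groups was possible, and no value below covers the spread between libraries.

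Unfolded proteins in the endoplasmic reticulum (ER) are sensed by ERN1 (IRE1), EIF2AK3 (PERK) and ATF6. ERN1 splices the XBP1 messenger RNA, ATF6 is cut in the Golgi to release a transcription factor, and EIF2AK3 phosphorylates the translation factor eIF2alpha. The last step is shared with kinases that sense missing amino acids, haem or viral RNA, and together these inputs make up the integrated stress response. Phosphorylated eIF2alpha lowers general translation but raises that of ATF4, which switches on genes of amino acid supply and, with DDIT3 (CHOP), of cell death, while PPP1R15A (GADD34) brings a phosphatase back to eIF2alpha. Tumour cells short of oxygen or nutrients are known to use this system.

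The list held 28695 peaks with a median fold enrichment of 4.36 over the caller's local background, a range from 2.13 to 29.0 and a median width of 1250 bp. The depth of the libraries is unknown, so a gene without a peak is one with no listed peak and not one shown to lack the mark. Among cell type markers, 4 of 6 epithelial genes (KRT7, KRT8, KRT18 and KRT19) and 4 of 4 mesenchymal genes (VIM, ZEB1, CDH2 and FN1) had a peak at an end. So had 3 of 6 lung lineage genes (NKX2-1, NAPSA and SFTPC) and 59.1% of all protein-coding genes. The end peak of KRT8, of 6.09-fold, is also that of KRT18. The KRT19 peak also lay at KRT15 and the SFTPC peak at BMP1, and the listed start of NKX2-1 lay in no peak. EPCAM and CDH1 had none there, and neither did SFTPB, SCGB1A1 and FOXA2 of the lung list. The blood and endothelial genes PTPRC, CD3E, CD14, PECAM1 and CDH5 had none at an end either.

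A peak lay at an end of 9 of the 10 stress genes, meaning that it touched the window of 1000 bp either side of the gene's start or end. The share was 90.0% (exact 95% binomial interval 55.5 to 99.7, counting error only), against 59.1% of all protein-coding genes. The genes were chosen with earlier results of these data known, so the interval is no test against that share. The gene without such a peak, ASNS, had one over its listed 5′ start, which the promoter table places 56033 bp inside the gene's outermost boundary. Counted by listed start, all 10 genes had a start inside a peak, compared with 49.9% of the 15842 coding genes for which the table gives one. The peaks over the 10 starts ranged from 3.59-fold at ASNS to 9.59-fold at ATF4. Their median was 6.92-fold, and that of the 7905 coding genes with a start in a peak was 5.80-fold (quartiles 4.59 and 7.33).

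The promoters of 5 of the genes are shown because they carry known types of stress response motif or, at ATF4, a palindromic E-box. Each runs 5′ to 3′ from 250 bases before to 50 bases after the first start in the table, as RefSeq gives it for GRCh38.p14. Capitals mark every match, on either strand, to the 6 motifs searched. These were the ER stress response element (CCAAT and CCACG spaced by 9 bases), the core of the unfolded protein response element (TGACGTGG), the C/EBP-ATF response element (TGATGNAAN), the CRE (TGACGTCA), the CCAAT box (CCAAT) and the E-box (CACGTG).
ATF4 promoter, chr22:39520309-39520608, plus strand: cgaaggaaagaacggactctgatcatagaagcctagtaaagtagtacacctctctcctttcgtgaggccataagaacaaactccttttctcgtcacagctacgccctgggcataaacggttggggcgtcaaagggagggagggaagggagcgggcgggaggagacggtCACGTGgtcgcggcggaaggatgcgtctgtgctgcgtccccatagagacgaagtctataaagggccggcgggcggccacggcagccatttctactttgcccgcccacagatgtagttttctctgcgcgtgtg
XBP1 promoter, chr22:28800520-28800819, minus strand: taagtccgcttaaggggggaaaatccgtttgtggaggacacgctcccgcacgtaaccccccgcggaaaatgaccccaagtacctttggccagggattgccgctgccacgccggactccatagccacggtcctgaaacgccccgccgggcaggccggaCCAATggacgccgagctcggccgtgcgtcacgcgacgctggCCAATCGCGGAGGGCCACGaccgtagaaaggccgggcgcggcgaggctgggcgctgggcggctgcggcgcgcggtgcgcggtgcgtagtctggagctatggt
PPP1R15A promoter, chr19:48872171-48872470, plus strand: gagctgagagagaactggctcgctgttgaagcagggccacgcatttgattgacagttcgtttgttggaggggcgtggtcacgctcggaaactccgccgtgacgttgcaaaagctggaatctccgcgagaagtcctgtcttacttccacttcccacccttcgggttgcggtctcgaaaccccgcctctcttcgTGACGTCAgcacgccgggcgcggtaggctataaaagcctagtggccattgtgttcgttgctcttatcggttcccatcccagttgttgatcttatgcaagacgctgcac
ASNS promoter, chr7:97872359-97872658, minus strand: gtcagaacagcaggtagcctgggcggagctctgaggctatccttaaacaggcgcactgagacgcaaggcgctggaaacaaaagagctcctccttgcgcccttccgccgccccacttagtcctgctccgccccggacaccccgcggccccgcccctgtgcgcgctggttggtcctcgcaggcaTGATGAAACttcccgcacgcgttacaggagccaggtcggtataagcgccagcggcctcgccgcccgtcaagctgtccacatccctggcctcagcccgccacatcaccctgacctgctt
CHAC1 promoter, chr15:40953221-40953520, plus strand: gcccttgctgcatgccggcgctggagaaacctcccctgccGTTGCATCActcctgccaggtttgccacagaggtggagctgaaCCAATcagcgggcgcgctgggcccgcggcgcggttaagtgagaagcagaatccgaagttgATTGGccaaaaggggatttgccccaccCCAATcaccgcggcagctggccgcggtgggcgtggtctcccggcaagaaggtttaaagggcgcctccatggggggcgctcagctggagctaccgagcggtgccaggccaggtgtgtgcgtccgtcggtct

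The XBP1 promoter holds the ER stress response element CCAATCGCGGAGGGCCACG, 52 to 34 bases before the start. It is the element that ATF6 is known to bind together with NF-Y, and it stands in 0.12% of the 15842 coding promoters. The CCAAT box inside it also counts as a CCAAT match, and XBP1 has a further one from 93 bases upstream. The C/EBP-ATF element, known as the site of ATF4 with a C/EBP partner, stands in 2.53% of all coding promoters. ASNS has it as TGATGAAAC from 68 to 60 bases upstream. CHAC1 has it on the opposite strand, read here as GTTGCATCA, from 210 to 202 bases upstream.

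PPP1R15A has a CRE from 58 to 51 bases upstream, a motif of 2.59% of all promoters, and ATF4 has an E-box from 82 to 77 bases upstream, found in 8.88%. CCAAT boxes stood in the promoters of XBP1, DDIT3, CHAC1, ERN1 and EIF2AK3, which is 5 of 10 genes against 36.4% of all. EIF2AK3 had 4 of them. The unfolded protein response element was found in none of the 10 windows and in 0.833% of all. No motif of the 6 was found at ATF6 and TRIB3. A match describes letters in this window and shows no binding, and an absent match says nothing of the factor.

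As a set, the 10 promoters were rich in CpG. Their ratio of observed to expected CpG had a median of 0.916 (quartiles 0.868 and 1.01), against 0.763 in all 15842 coding promoters. The median was 0.870 in the 7905 whose start lay in a peak and 0.441 in the 7937 whose start did not. XBP1 had a ratio of 1.13, above 97.8% of all coding promoters, ATF6 had 1.03 and PPP1R15A 1.02. CHAC1, the gene with the lowest ratio, had 0.754, below the median of all coding promoters. Base content as such varied widely among the 10 promoters. GC made up 77.0% of the TRIB3 promoter and 47.0% of that of ATF6, with a median over the 10 of 64.3% against 67.0% in promoters with a start in a peak. The peak covered all 300 bases of 9 promoters, but only 63 bases of that of PPP1R15A.

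**Figure D1:**
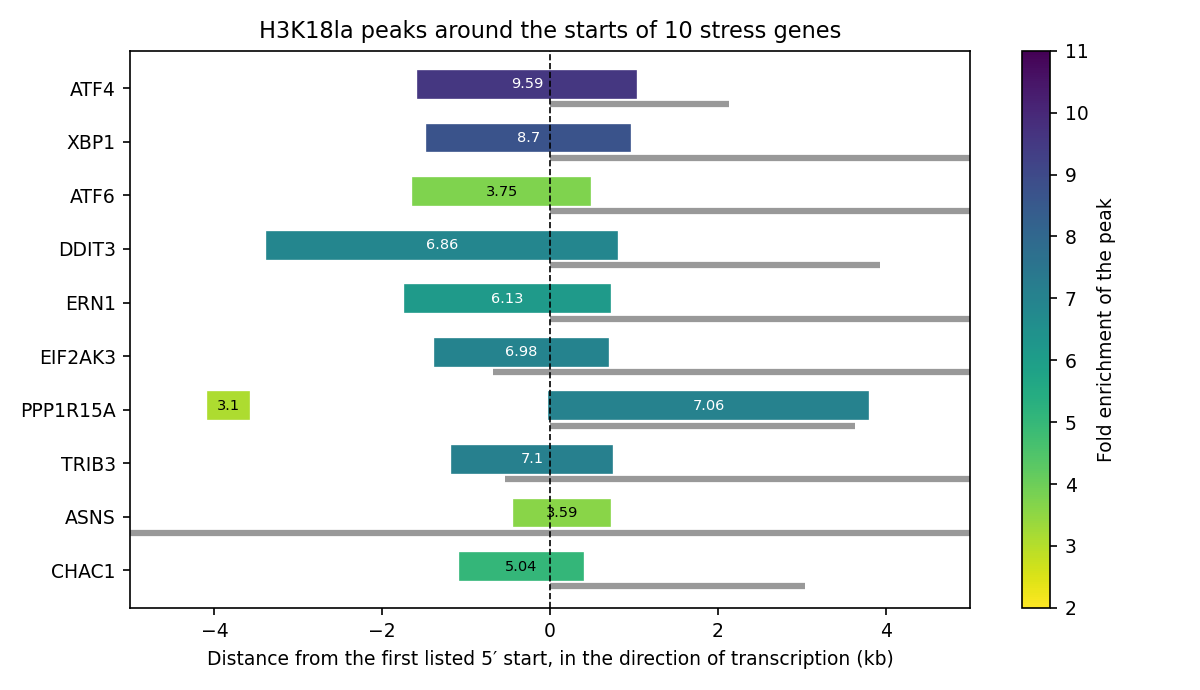
Peaks (coloured bars, labelled with their fold enrichment) by distance in kb from the first listed 5′ start of each gene, read in the direction of transcription, with the gene in grey below, cut at 5 kb to either side. Every start lies in a peak, from 3.59-fold at ASNS to 9.59-fold at ATF4, and the PPP1R15A peak lies almost wholly downstream.

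Among the transcription factors, ATF4 and XBP1 carried the strongest start peaks of the 10 genes and ATF6 a weak one. ATF4 (NCBI gene 468, chromosome 22, 39520559 to 39522686) is the effector whose translation rises when eIF2alpha is phosphorylated. Its peak of 2591 bp ran from 39518990 to 39521580 with a fold of 9.59 and a -log10 q of 35.3. That fold was above 91.9% of the coding genes with a start in a peak. The lower edge of the peak came within 1000 bp of the 3′ end of MIEF1, a gene of mitochondrial fission on the same strand, so that the peak was also counted there. ATF4 has the processed copies ATF4P1 to ATF4P4, and XBP1 has XBP1P1. How reads that match such copies were placed was not examined.

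XBP1 (NCBI gene 7494, chromosome 22, 28794560 to 28800569, minus strand) encodes the factor made in active form after ERN1 splices its messenger RNA. Its peak spanned 2424 bp, from 28799613 to 28802036, with a fold of 8.70 and a -log10 q of 28.9. The fold was above 87.0% of start peaks. No other coding gene end lay within 1000 bp of it. The locus held 1 other peak, of 9.15-fold over the start of CCDC117, 20869 bp beyond the 3′ end of XBP1.

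ATF6 (NCBI gene 22926, chromosome 1, 161766320 to 161964070) encodes the membrane-bound sensor that is itself a transcription factor. Its start lay in a peak of 2108 bp with a fold of 3.75 and a -log10 q of 5.19. Only 9.36% of start peaks had a lower fold. The gene is 197751 bp long, and the stronger of its peaks lay at the other end: 6.50-fold over 2179 bp, from 161961306 to 161963484, wholly inside the gene at its 3′ end. No peak lay between them. The start peak was also at the divergent noncoding gene ATF6-DT, and it reached 1633 bp upstream of the ATF6 start but 474 bp downstream.

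DDIT3 (NCBI gene 1649, chromosome 12, 57516588 to 57520517, minus strand) encodes CHOP, a factor that takes part in death under lasting ER stress. Its peak was the widest of the 10, at 4167 bp from 57519717 to 57523883, with a fold of 6.86 and a -log10 q of 22.6. It was wider than 95.9% of start peaks. Of its length, 3369 bp lay upstream of the DDIT3 start, over the start and the beginning of MBD6, a methyl-CpG binding domain gene that is transcribed the other way 197 bp away. The signal cannot be divided between these genes. LOC128125814, an overlapping coding entry, shares the peak as well. The 3′ end of DDIT3 overlaps that of MARS1, the methionyl-tRNA synthetase gene, and had no peak.

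Of the sensors, ERN1 and EIF2AK3 had start peaks of middling to upper strength. ERN1 (NCBI gene 2081, chromosome 17, 64039142 to 64130144, minus strand) encodes the kinase and nuclease that cuts XBP1 messenger RNA. Its start peak had a fold of 6.13, a width of 2439 bp and a -log10 q of 21.8, and 56.3% of start peaks were weaker. ERN1 was the gene with the most peaks in its locus, 6 in all. The body held 3 of them, of which the strongest (5.14-fold, 2641 bp, 64102541 to 64105181) began 24963 bp downstream of the start. The others in the body, of 2.82-fold and 2.98-fold, had -log10 q values of 1.95 and 3.22.

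EIF2AK3 (NCBI gene 9451, chromosome 2, 88556741 to 88628145, minus strand) encodes PERK, the ER-bound eIF2alpha kinase. The start peak spanned 2062 bp, from 88626781 to 88628842, with a fold of 6.98 and a -log10 q of 19.0, above 70.5% of start peaks. The noncoding gene EIF2AK3-DT has an end in the same peak. The body held 1 further peak, of 360 bp and 3.36-fold, 26535 bp downstream and with a -log10 q of 2.65. EIF2AK3 was the one gene of the 10 with no peak in the flanks of 50000 bp.

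PPP1R15A (NCBI gene 23645, chromosome 19, 48872421 to 48876058) encodes GADD34, the stress-induced subunit that directs protein phosphatase 1 to eIF2alpha. Its peak covered the whole gene, 3638 bp, and little else. It ran from 48872408, 13 bp before the start, to 48876207, with a width of 3800 bp, a fold of 7.06 and a -log10 q of 20.0. Of coding genes with a start in a peak, 4.98% had under 50 bp of that peak upstream. The promoter printed above was therefore mostly outside the peak, and a weak separate peak of 492 bp (3.10-fold, -log10 q 2.09) lay 3586 bp upstream of the gene, at the end of PLEKHA4.

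The target genes split into TRIB3, with a fold above most start peaks, and CHAC1 and ASNS, with folds below the median. TRIB3 (NCBI gene 57761, chromosome 20, 380760 to 397559) encodes a pseudokinase induced by ATF4 and DDIT3. Its peak had a fold of 7.10 over 1915 bp, from 380120 to 382034, with a -log10 q of 27.8, above 72.4% of start peaks. It covered the first of the 3 listed starts. CHAC1 (NCBI gene 79094, chromosome 15, 40953471 to 40956512) encodes an enzyme that breaks down glutathione. Its peak had a fold of 5.04 over 1456 bp, with a -log10 q of 9.51, and 35.3% of start peaks were weaker.

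ASNS (NCBI gene 440, chromosome 7, 97851677 to 97928441, minus strand) encodes asparagine synthetase, a classical target of amino acid shortage. Its peak was the narrowest and weakest of the 10 start peaks, at 1145 bp, 3.59-fold and a -log10 q of 5.10. It ran from 97871697 to 97872841 and held the first of the 2 listed starts together with the C/EBP-ATF element shown above. Of start peaks, 6.63% had a lower fold. No peak lay at either outer end of the ASNS entry. The only other peak of the locus (3.70-fold, 1378 bp) lay 43225 bp beyond the upper boundary, at an end of the noncoding gene CZ1P-ASNS.

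**Figure D2:**
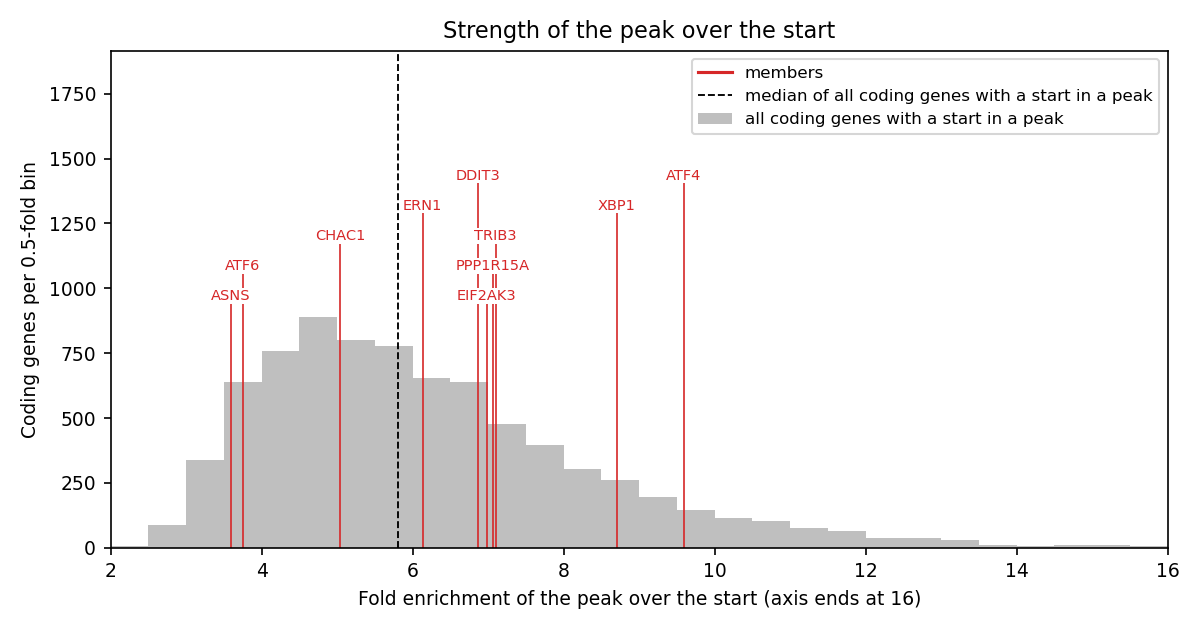
Number of coding genes (y axis) by fold enrichment of the peak over the first listed start (x axis, 0.5-fold bins), with the 10 stress genes as red lines. ASNS, ATF6 and CHAC1 lie below the median of 5.80-fold (dashed) and 7 genes lie above it, ATF4 furthest at 9.59-fold.

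The start peaks of these genes mostly reached further upstream than downstream. Their upstream reach had a median of 1422 bp (quartiles 1096 and 1617), against 683 bp over all coding genes with a start in a peak. Downstream the medians were 725 bp and 769 bp. The upstream reach was above the 683 bp median in 8 of 10, the exceptions being PPP1R15A with 13 bp and ASNS with 433 bp. Reach is counted from the first listed start, which lies 535 bp inside the gene entry at TRIB3 and 681 bp inside it at EIF2AK3. Part of their upstream reach, 1175 bp and 1378 bp, is therefore within the gene entry. At ERN1 the upstream reach was 1727 bp, more than at 92.7% of coding genes with a start in a peak. It was 1633 bp at ATF6 and 1569 bp at ATF4. The downstream share of the peak was 19.1% at DDIT3 and 22.5% at ATF6, compared with 62.1% at ASNS and 99.6% at PPP1R15A. In width, 8 of 10 peaks were above the median of 1526 bp, and those of ASNS and CHAC1 were below it. At ATF4, ATF6, DDIT3 and EIF2AK3 (4 of 10) the start peak was shared with an end of some other coding or noncoding gene. The share of all coding genes with a start peak shared in this way is not given here. Counting coding genes alone, 2 of the 9 members with an end peak (ATF4 and DDIT3) shared it. Of all coding genes with an end peak, 32.9% did. The part of neighbouring genes in the upstream reach was not tested.

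**Figure D3:**
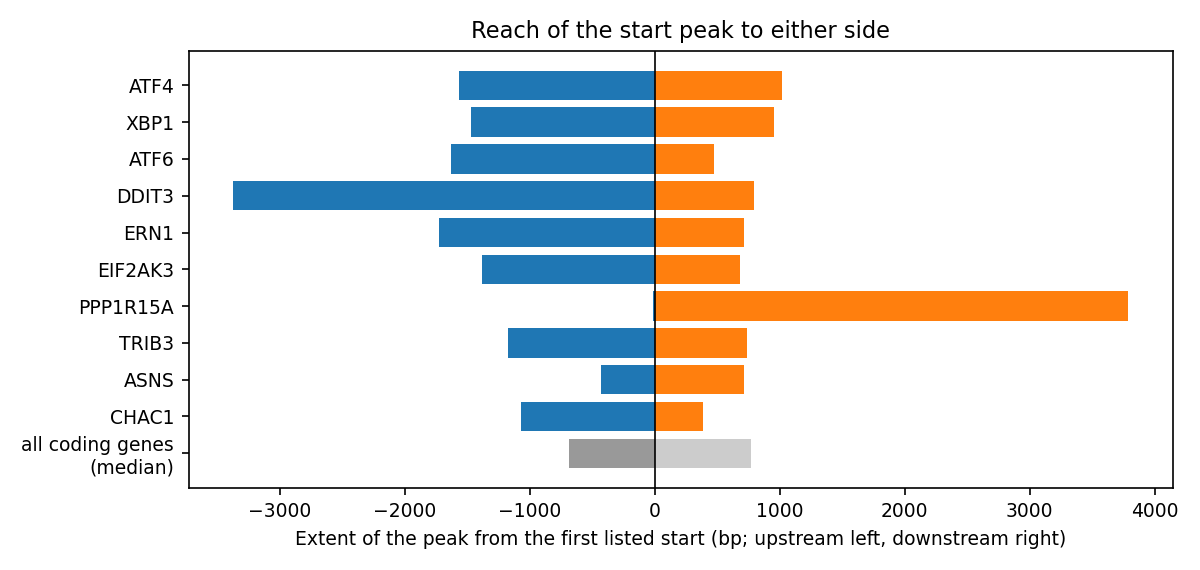
Length in bp of the start peak to the left (upstream) and right (downstream) of the first listed start, for the 10 stress genes and, in grey, the median over all coding genes with a start in a peak. DDIT3 reaches 3369 bp upstream and PPP1R15A 3786 bp downstream, while the grey bars are 683 and 769 bp.

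Within 50000 bp the 10 genes had 35 peaks, all distinct: 10 at an end, 5 in a body and 20 nearby. The median was 3.5 peaks a gene, against 3 over all coding genes (quartiles 1 and 5). Peaks covered a median of 4.33% of each locus, the gene with its flanks, compared with 2.26% over all coding genes. The range was from 1.41% at EIF2AK3 and 1.43% at ASNS to 8.25% at TRIB3. Clear of the windows at both outer ends, 3 of 10 genes (ASNS, ERN1 and EIF2AK3) had a peak in the body. The share over all coding genes was close, at 24.8%. At ASNS this is the peak over the listed start, already counted among the start peaks. The EIF2AK3 body peak had a -log10 q of 2.65, and 2 genes had a body peak at a -log10 q of at least 5. ASNS, ERN1 and EIF2AK3 are 3 of the 4 longest members. Of all 6258 coding genes longer than 50000 bp, 50.4% had a peak in the body.

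A nearby peak was found for 9 of 10 genes, against 70.3% of all coding genes. Of the 20 nearby peaks, 13 lay at an end of another coding gene and 7 did not. Their folds ranged from 2.82 to 10.6 with a median of 6.09. In 8 of the 10 genes, all but ATF4 and EIF2AK3, some nearby peak had a higher listed fold than the peak over the gene's own start, against 45.8% of all coding genes with a start in a peak. Several of these margins were too small to rank. The nearby and start peaks had 7.16-fold and 7.10-fold at TRIB3, 7.13-fold and 7.06-fold at PPP1R15A, 3.70-fold and 3.59-fold at ASNS, 9.15-fold and 8.70-fold at XBP1, and 7.49-fold and 6.86-fold at DDIT3. The margins at ATF6, ERN1 and CHAC1 were wider.

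The strongest nearby peak, of 10.6-fold and 2020 bp, lay 38155 bp upstream of ATF6 at the end of the Fc receptor-like gene FCRLB. Another, of 5.81-fold, lay at DUSP12. ERN1 had a peak of 9.97-fold and 1915 bp, 15085 bp upstream, at the 3′ end of TEX2 and at an end of the small nucleolar RNA host gene SNHG25. Its neighbour ICAM2, an adhesion gene of endothelium and blood cells, had no peak at an end. ATF4 had a narrow peak of 490 bp and 8.37-fold at RPS19BP1, and DDIT3 one of 7.49-fold at DCTN2. On the other side of DDIT3 a peak of 320 bp and 2.82-fold lay at neighbouring ends of MARS1 and ARHGAP9.

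Of the 7 nearby peaks away from coding gene ends, 3 were above 5-fold. CHAC1 had 2 of the stronger ones, 6.70-fold over 1820 bp lying 10731 bp upstream and 6.38-fold over 1677 bp lying 45953 bp upstream, both on the side of the Notch ligand gene DLL4, which had no peak at an end. Both were stronger than the CHAC1 start peak. ATF4 had 5.57-fold over 1398 bp inside MIEF1. The others were 4.58-fold upstream of ATF6, 3.70-fold beyond ASNS, 3.44-fold over 2660 bp upstream of TRIB3 and 3.30-fold inside INO80 near CHAC1. Which gene, if any, such a peak belongs to was not tested.

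**Figure D4:**
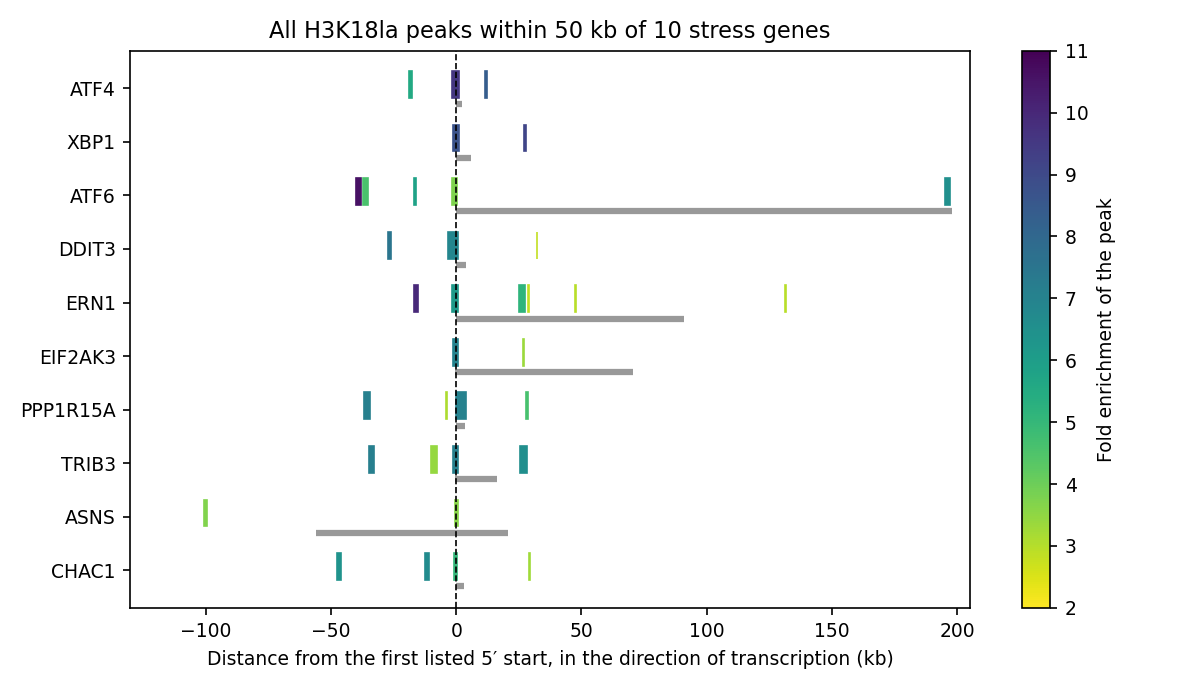
All 35 peaks of the 10 loci (bars coloured by fold enrichment) by distance in kb from the first listed start, in the direction of transcription, with each gene in grey below. ERN1 has the most peaks, 6, ATF6 has a peak at each end of its gene, and EIF2AK3 has none outside it.

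The other genes of the pathway, taken from 7 lists, had peaks at their ends about as often as the 10. Leaving the 10 out, 95 of 104 genes had one (91.3%, 84.2 to 96.0, counting error only), again against 59.1% of all coding genes. Their median was 6.26-fold, against 5.66-fold over all coding genes with such a peak. The lists were chosen with earlier results of these data known, so these shares are a description and no test. By listed start, 71 of 88 genes with an entry lay in a peak, against 49.9% of all coding genes with an entry. Some of the end peaks also lay at another coding gene, and 74 of the 95 genes kept a peak at an end when such shared peaks were left out. Of all coding genes with an end peak, 30.7% then kept none. To which of the genes a shared peak belongs was not tested.

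Of the sensors and eIF2alpha kinases, 11 of 12 had a peak at an end. The site-1 protease gene MBTPS1, whose product cuts ATF6, had 9.92-fold, the ATF6 relative ATF6B 8.70-fold (also at FKBPL), GCN1, an activator of the amino acid sensing kinase, 8.27-fold (also at RPLP0) and that kinase, EIF2AK4, 7.5-fold. The gut form of IRE1, ERN2, had no peak. The eIF2, eIF2B and phosphatase list had a peak in 15 of 15 genes, with EIF2S2 at 10.6-fold and the phosphatase catalytic genes PPP1CB and PPP1CA at 7.71-fold and 6.73-fold. The median of that list was 6.41-fold, and PPP1R15A, at 7.06-fold, was the third of it.

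The transcription factor list had a peak at an end in 12 of 15 genes. Without peaks shared with another coding gene, 7 of these 12 kept one. Of all coding genes with an end peak, 30.7% kept none in this way. The 59.1% of all coding genes includes shared peaks and is not the share to set beside the 7. CREB3L1, a membrane-bound relative of ATF6, had 9.35-fold and CEBPG, a partner of ATF4, 8.77-fold. ATF3, NUPR1 and CREB3L3 had no peak at an end, although ATF3, an early stress-induced factor, held 4 peaks in its body. CREB3L3 is a factor of liver and gut. Of the ATF4 and CHOP targets, 24 of 27 had a peak, with the amino acid transporter gene SLC7A1 at 9.24-fold, the sestrin gene SESN2 at 8.55-fold, VEGFA at 7.59-fold and SHMT2 at 7.57-fold. Those without were ASNS, the hormone gene FGF21 and the death gene BBC3, which had 2 peaks in its body.

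ER chaperones and folding enzymes had a peak at an end in 19 of 20 genes, with a median of 5.89-fold. Without peaks shared with another coding gene, 10 of these 19 kept one, where 30.7% of all coding genes with an end peak kept none. The calreticulin gene CALR had 4.97-fold over its listed start. FKBP2 had 8.72-fold (also at PPP1R14B and LOC114841035), the disulfide isomerase genes P4HB and PDIA4 8.65-fold and 7.47-fold, and PDIA6 had only a peak in its body. HSPA5, the BiP chaperone that holds the sensors inactive, had 4.22-fold. It was one of 5 genes of the list whose promoter held the ER stress response element, with HSP90B1, CALR, CANX and CRELD2, out of 19 with a promoter entry. These were named after the matches were seen.

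ER-associated degradation and translocation genes had a peak in 19 of 21 cases, led by the segregase gene VCP at 12.2-fold, the translocon gene SEC61G at 9.39-fold and HERPUD1 at 8.80-fold. DERL3 and SEL1L had none. The genes of the IRE1 arm beyond ERN1 had a peak in 7 of 7 cases, among them ZBTB8OS at 8.70-fold (also at RBBP4), MAPK8 at 7.54-fold, RTCB, the ligase that joins spliced XBP1 messenger RNA, at 6.81-fold and TMBIM6 at 5.71-fold.

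**Figure D5:**
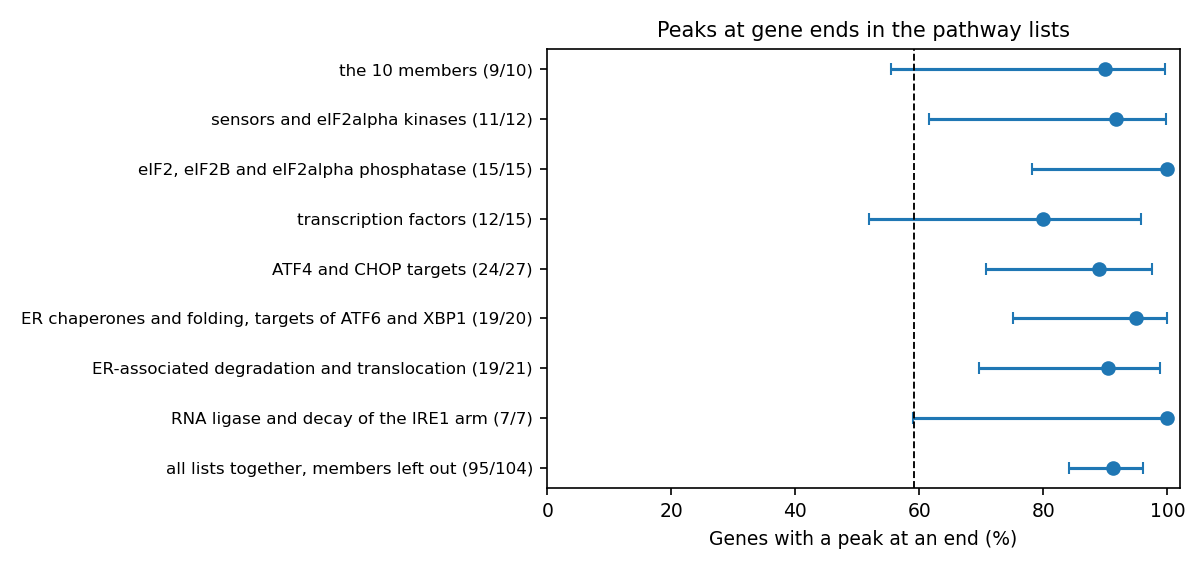
Share of genes with a peak at an end, in percent, for the 10 stress genes and each pathway list, with exact 95% binomial intervals that cover counting error only; the dashed line is the 59.1% of all coding genes. The 10 members stand at 90.0% and all lists without them at 91.3%. The lists were chosen with earlier results of these data known, so the intervals are no test.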

How the data were processed

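Per the submitters' processing notes, reads were handled with bcl2fastq 2.17, cutadapt 1.18, Trimmomatic 0.38, Bowtie2 2.3.4.1, Picard, MACS2 (2.1.2 and 2.1.0) and ChIPseeker, on hg38. The caller's settings and control are not given in the sources used here. The deposited fold enrichment of a peak is a ratio to the caller's local background, averaged over the peak. Significance is deposited as -log10 p and -log10 q. The deposited score repeats -log10 q as a whole number (multiplied by 10 and cut, in 99.98% of peaks). The largest q listed was 0.0472.

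Peaks were compared with RefSeq genes (GRCh38.p14) in Python 3.11.15 with pandas 2.3.3, and 718 entries on alternate or unlocalised sequences were left out. An overlap of 1 bp counted. Starts and strands came from the RefSeq promoter table, which matched all 10 members. For the other genes the first start listed was used. Tested on simulated data, overlaps equalled those of bedtools 2.31.1 for 500 of 500 genes. Genes named were the 10 members, genes sharing or next to their peaks, and up to 4 of highest fold and 6 without a peak per list. The members and lists were chosen with earlier results of these data known.

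Some results are not reported here.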

Additional observations from a re-analysis of the deposited data

How the results depend on the processing

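The count of 9 genes with a peak at an end, and that of the other pathway genes, stayed within 1.5 times their value under every alternative tried. The count of 9 was 7, without DDIT3 and PPP1R15A, when the midpoint, or 50% of the peak, had to lie in the window. The 10 genes with a start in a peak were 10 with a -log10 q of at least 5, but 8 among peaks at or above the median fold, without ATF6 and ASNS. The share of all coding genes under these cut-offs is not given here. With listed 5′ starts the median fold was 6.92. Genes with a peak in the body numbered 1 among peaks at or above the median fold, and 5 when the midpoint, or 50% of the peak, had to lie in the interval. Genes with a nearby peak numbered 3 with a flank of 10000 bp. The median number of peaks a gene was 3 at a -log10 q of at least 5 or at or above the median fold, 2 with a flank of 10000 bp and 6 with one of 100000 bp. ATF6 had 3.75-fold at an end under the midpoint, 50% and 500 bp alternatives, which leave out its 3′ peak. Without peaks shared with another coding gene, 7 of the 9 stress genes with an end peak, 74 of the 95 other pathway genes, 7 of the 12 transcription factor genes and 10 of the 19 chaperone genes counted. Of all coding genes with an end peak, 30.7% were lost in this way. Of the 35 peaks, 8 had a -log10 q under 5, none of them at an end. No paired analysis was possible because each group has 1 library. Fold averages over a peak's length and depth is unknown, so small differences in fold cannot be ranked.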
